A study of Rattus norvegicus with 6 samples.

Results

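The Wnt pathway genes of a rat osteosarcoma line were followed across 6 cultures, 3 of them given a serine protease inhibitor. Members were the probe sets whose platform annotation gave exactly 1 gene symbol of the Wnt family or its receptors (Wnt, Fzd, Lrp5, Lrp6, Lgr4 to Lgr6), antagonists (Sfrp, Frzb, Dkk, Wif1, Kremen), turnover ligases (Znrf3, Rnf43), effectors (Dvl, Nkd, Gsk3, Axin, Apc, Ctnnb1), nuclear factors (Lef1, Tcf7) or Ccnd1. This rule used names alone and gave 83 probe sets for 51 genes, of 20826 probe sets for 14217 genes with 1 symbol on the array. Of 65 RefSeq coding genes whose symbols match the rule, 14 were not analysed here, Dkk1, Rnf43, Fzd7, Wnt3a and Wnt10b among them.

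Cells of UMR106-01, an osteoblast-like line from a rat osteosarcoma, were grown in medium with fetal bovine serum and re-fed 64 h after plating with 6.5 mM beta-glycerol phosphate, an organic phosphate that supplies phosphate for mineral. The mineralizing group (3 cultures) received this medium alone, and the AEBSF group (3 cultures) received it with 400 µM AEBSF, a covalent inhibitor of serine proteases. All cultures were collected at 76 h, so AEBSF was present for 12 h. Both groups had beta-glycerol phosphate and there was no group without it, so the comparison is of mineralizing medium with and without AEBSF. A difference in plating or handling between the groups could not be told apart from AEBSF. All cultures were of 1 transformed line, and the labels do not say whether the 3 cultures of a group came from separate platings. The p-values therefore measure the spread between these cultures, which may be technical. The question put to the arrays is how AEBSF moves RNA levels.

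Wnt ligands are lipid-modified secreted proteins that bind Frizzled receptors and the co-receptors Lrp5 or Lrp6. In the canonical branch this stops a complex of Axin, Apc and Gsk3 from marking beta-catenin (Ctnnb1) for destruction, and beta-catenin then enters the nucleus and activates genes with Lef1 and Tcf factors. In bone, Wnt signalling through Lrp5 and Lrp6 favours bone formation, and secreted antagonists restrain it. These are background facts and not results of these cultures, in which only RNA was measured.

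Each culture gave 1 array of MAS5 signals, a brightness per probe set after each array is scaled to a common mean. The scaled mean signal was 500.15 or 500.16 on every array, and the lowest correlation between any pair of arrays was 0.979 over the tested probe sets (log2 scale). Of 8 tested osteoblast markers, Col1a1, Col1a2 and Phex fell and 0 rose in limma, while Alpl, Ibsp, Spp1, Sparc and Pth1r did not pass. Of all tested genes 9.22% were lower. The summed signal of the 8 markers with Bglap was 29319 to 30926 in mineralizing and 26651 to 27822 in AEBSF cultures. The osteoblast marker Ibsp was bright (15661 to 17285), whereas Bglap, which encodes osteocalcin, lay at 1.41 to 7.46. Of 21 markers of chondrocytes, adipocytes, macrophages and osteoclasts, endothelium and muscle, 16 lay below the signal filter, including Ptprc, Pecam1, Myod1 and Adipoq. The 5 tested were Acan, Lpl, Pparg, Csf1r and Des, and 0 of them passed in limma. Signals of the adipocyte markers Lpl and Pparg were 212 to 348 and 98.0 to 128. Csf1r of macrophages lay at 67.9 to 168, Acan of chondrocytes at 46.8 to 102 and Des of muscle at 59.6 to 91.6. The part of the falls in Col1a1, Col1a2 and Phex in the results on Wnt genes was not tested.

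Promoters of 3 members are shown because they hold CTTTGAT, a form of the core of the Tcf and Lef binding motif. It was searched on both strands, and other forms of the core were not searched or marked. The genes of these promoters can be set against the RNA values. The promoters are RefSeq sequences of build GRCr8 from 250 bases before to 50 bases after the gene start, and capitals mark CTTTGAT. Axin2 lies at chr10:94398535-94398834 on the plus strand, Nkd1 at chr19:34722797-34723096 on the minus strand and Tcf7 at chr10:36954230-36954529 on the minus strand. Promoters were found for 36 of the 51 genes, and 3 of the 36 (8.33%) held CTTTGAT against 3.63% of all 33469 promoters searched. The member share rests on 3 genes, and its difference from the share over all promoters was not tested. Axin2 and Nkd1 encode feedback inhibitors of the pathway that are induced by it in many tissues, and Tcf7 encodes the nuclear partner TCF-1.
Axin2: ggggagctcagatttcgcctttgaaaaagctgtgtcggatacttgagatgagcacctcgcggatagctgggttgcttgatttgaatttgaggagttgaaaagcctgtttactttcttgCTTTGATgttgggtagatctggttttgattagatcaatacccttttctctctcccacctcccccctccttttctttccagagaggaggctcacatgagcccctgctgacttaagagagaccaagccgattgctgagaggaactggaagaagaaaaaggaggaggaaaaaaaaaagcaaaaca
Nkd1: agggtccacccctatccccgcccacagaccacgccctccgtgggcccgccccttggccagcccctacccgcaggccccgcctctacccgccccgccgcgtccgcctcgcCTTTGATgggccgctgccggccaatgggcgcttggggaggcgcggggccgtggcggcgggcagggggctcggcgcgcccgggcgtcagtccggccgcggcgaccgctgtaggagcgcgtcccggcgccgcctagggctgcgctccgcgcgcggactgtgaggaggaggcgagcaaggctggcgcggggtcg
Tcf7: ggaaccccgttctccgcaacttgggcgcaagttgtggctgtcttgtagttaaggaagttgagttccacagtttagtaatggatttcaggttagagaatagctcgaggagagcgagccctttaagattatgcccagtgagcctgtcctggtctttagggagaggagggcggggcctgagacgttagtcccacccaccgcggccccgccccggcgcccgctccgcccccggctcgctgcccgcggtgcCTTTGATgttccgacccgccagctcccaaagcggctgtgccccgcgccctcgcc

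The marked CTTTGAT starts 132, 141 and 4 bases before the gene start in Axin2, Nkd1 and Tcf7, and in each it reads on the strand of the gene. A match describes these letters and does not show binding. None of the 3 genes passed the test with AEBSF, as given below with their values. Ccnd1, Znrf3, Lrp5, Lrp6, Axin1, Sfrp1, Sfrp4, Kremen1, Dkk2, Dkk3, Fzd2, Fzd3, Fzd6, Lgr5 and Wnt5b had no entry in the table of promoters.

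With AEBSF, 1 of the 35 tested genes of the rule passed: Ccnd1, which encodes cyclin D1, fell. The 34 others, tested members of the Wnt and Frizzled families, antagonists, destruction complex and nuclear factors, did not pass in either direction. Most ligand and antagonist genes of the rule were too dim to test, and pathway genes outside it, some of which changed, are given after the members. Of 83 member probe sets, 49 lay above the signal filter, a geometric mean signal of 67.2 over the 6 arrays, and were tested. They stood for 35 of the 51 genes. In limma with Benjamini-Hochberg adjustment over all 18625 tested probe sets, 2 of the 49 were lower, 0 were higher and 47 did not pass an adjusted p of 0.05. Of all tested probe sets 7.41% were lower, 5.99% were higher and 13.4% passed in either direction. At an unadjusted p under 0.05, 8 of the 49 passed, 4 higher and 4 lower, against 28.4% of all tested probe sets. The 3 values of one group all lay beyond those of the other in 9 of the 49, against 32.7% of all. By the brightest probe set of each gene, 1 of 35 genes was lower and 0 higher, against 9.22% and 7.09% of all 9864 tested genes.

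The size of the differences was close to that over the whole array. The median log2 fold change of the 49 probe sets was 0.04 and of all tested probe sets 0.01, and the median without regard to sign was 0.145 against 0.152. The median standard error was 0.133 for the members and 0.109 for all. For 35 of the 49 the 95% interval of the difference lay within a 1.5-fold change either way and for 47 within 2-fold. These intervals are from limma and are not adjusted for the number of probe sets. By role, the median log2 difference over the tested probe sets was 0.12 for ligands, 0.085 for receptors, 0.17 for receptor turnover, -0.17 for antagonists, 0.11 for cytoplasmic effectors and -0.04 for the nuclear factors with Ccnd1.

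**Figure D1:**
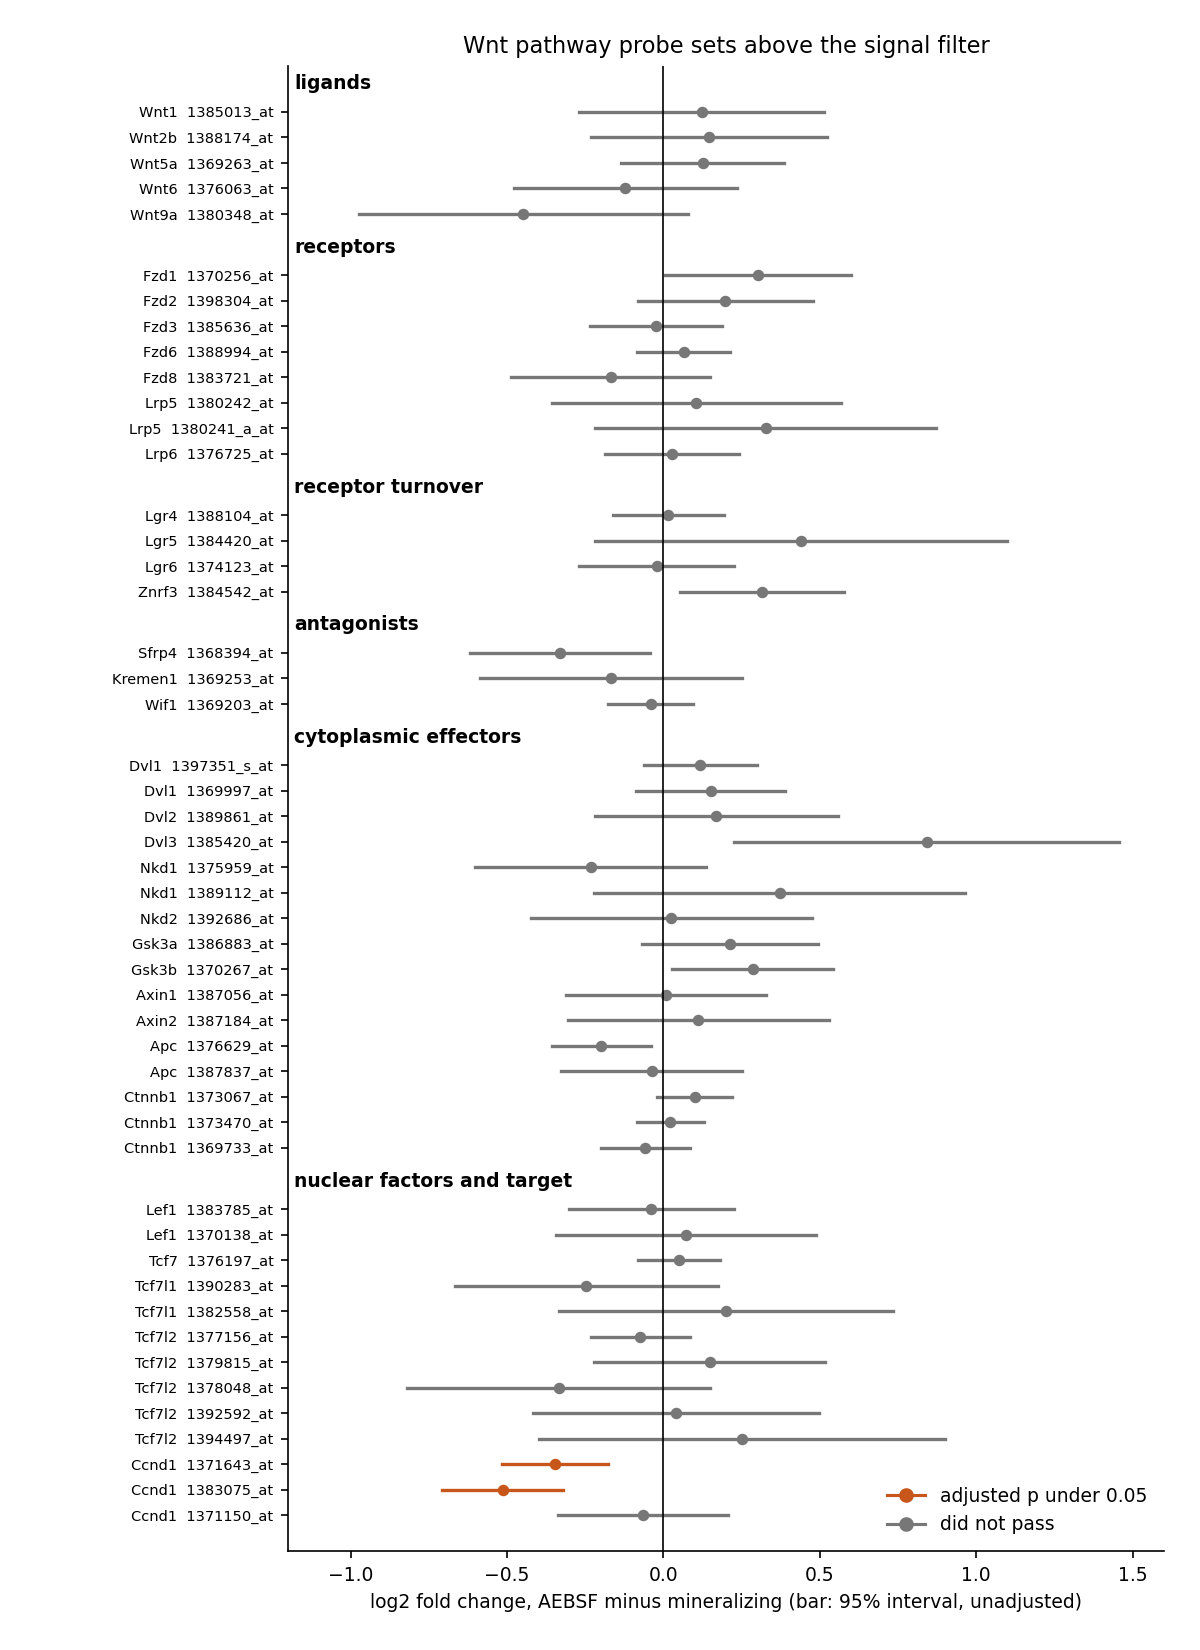
Log2 fold change of the 49 tested Wnt pathway probe sets (x axis, AEBSF minus mineralizing, 3 cultures each), grouped by role, with the limma estimate as a point and its unadjusted 95% interval as a bar. The 2 orange Ccnd1 probe sets passed an adjusted p of 0.05, and the 47 grey ones did not.

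Ccnd1, the cyclin that drives the G1 phase of the cell cycle and a textbook target of beta-catenin, was measured by 3 probe sets. On the brightest, 1371643_at, the mineralizing cultures had signals of 743, 766 and 774 and the AEBSF cultures 623, 615 and 560. All AEBSF values lay below all mineralizing ones. The mean fell 1.27-fold from 761 ± 16 to 599 ± 34.6 (SD, n = 3 cultures each; log2 difference -0.35 with SE 0.08, adjusted p = 0.0144 by limma). In whole cultures, less transcript per cell and fewer cells that make it cannot be told apart.

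For Ccnd1, probe set 1383075_at gave 770, 670 and 781 in mineralizing and 551, 497 and 506 in AEBSF cultures. Here too the groups did not overlap. The mean fell 1.43-fold from 740.5 ± 61.2 to 518 ± 28.8 (log2 difference -0.51 with SE 0.09, adjusted p = 0.00376 by limma). Probe set 1371150_at gave 517, 492 and 603 against 461, 622 and 467, with AEBSF culture 2 the highest of the 6 (log2 difference -0.07 with SE 0.12, adjusted p = 0.774 by limma). Its 95% interval ran from 79.1% to 115% of the mineralizing level, and the groups overlapped.

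The estimates of the 3 Ccnd1 probe sets were thus unlike in size. The per-array log2 ratio of 1383075_at to 1371150_at was 0.58, 0.45 and 0.37 in mineralizing and 0.26, -0.32 and 0.12 in AEBSF cultures, a difference of -0.45. In a 2-sided exact permutation test over the 6 arrays this gave p = 0.1, the smallest that 3 against 3 allows (adjusted p = 0.3 over the 3 pairs of probe sets). The other pairs, 1371643_at with 1371150_at and with 1383075_at, differed by -0.28 and 0.17 (exact permutation p = 0.2 and 0.3). No pair could pass 0.05 with 3 against 3, so this test cannot decide whether the probe sets differ. Averaged over its probe sets, Ccnd1 also fell (log2 difference -0.31 with SE 0.08, adjusted p = 0.0328 by limma). The call of 1383075_at was kept in each of the 16 other fits of the probe sets. That of 1371643_at was lost without mineralizing culture 2 or 3 (limma adjusted p = 0.0562 and 0.0523) and with a constant variance prior (0.0505).

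**Figure D2:**
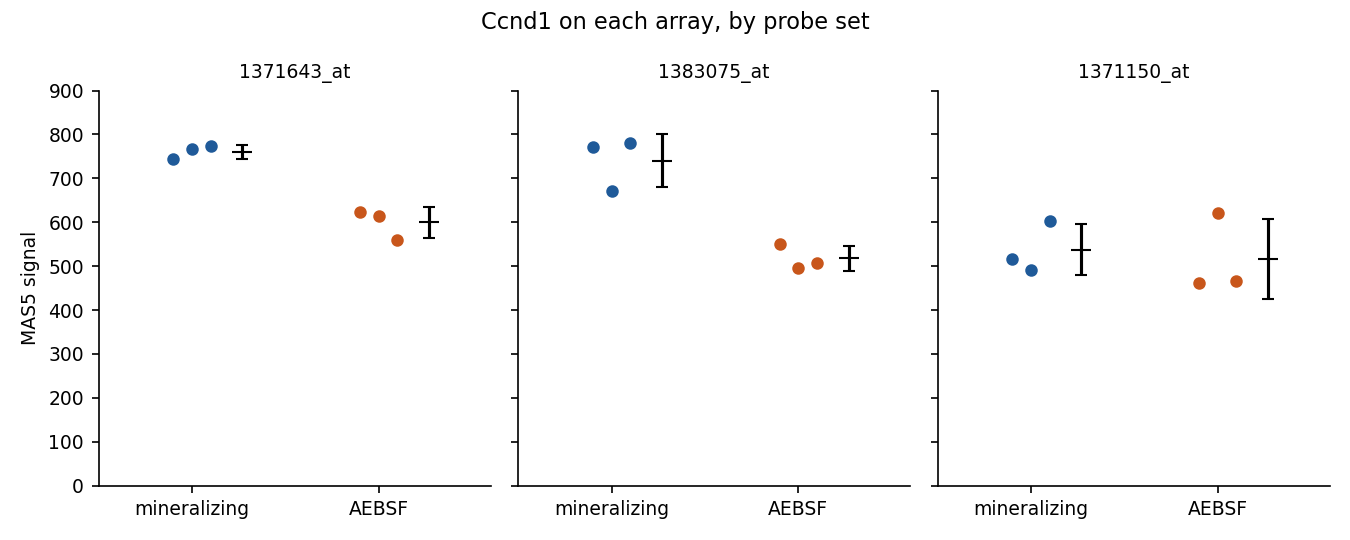
MAS5 signal of Ccnd1 (y axis, from 0) on each array for its 3 probe sets, with mineralizing cultures in blue, AEBSF cultures in orange and the mean ± SD of 3 beside each group. The groups do not overlap for 1371643_at and 1383075_at and do for 1371150_at.

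Among the ligands, 5 of 13 measured genes were bright enough to test and none passed in limma. Of the 5, 0 had an unadjusted limma p under 0.05, against 3142 of all 9864 tested genes. Wnt5a, a ligand best known for signalling without beta-catenin, had signals of 313, 318 and 348 in mineralizing and 412, 342 and 320 in AEBSF cultures. AEBSF culture 1 was the highest and the other two lay inside the mineralizing range (log2 difference 0.13 with SE 0.12, adjusted p = 0.532 by limma). Wnt6 stood at 200.2 ± 24.2 and 185 ± 30.4 on its tested probe set (limma adjusted p = 0.673), and its other probe set lay below the filter.

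Wnt9a, a ligand with roles in joint formation, was 85.0, 86.8 and 93.0 in mineralizing and 77.1, 69.1 and 50.8 in AEBSF cultures. The groups did not overlap, but the signals lay near the filter and the difference did not pass (log2 difference -0.45 with SE 0.24, adjusted p = 0.249 by limma). Wnt1 and Wnt2b had means of 140 and 142 in mineralizing and 152 and 158 in AEBSF cultures, with limma adjusted p = 0.702 and 0.627. Wnt2, Wnt4, Wnt5b, Wnt7a, Wnt8b, Wnt10a, Wnt11 and Wnt16 had no probe set above the filter and were not tested. Their 11 probe sets gave signals of 1.94 to 67.8 on single arrays.

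Of 9 measured Frizzled and Lrp genes, 7 were tested and none passed in limma. Of the 7, 1 (Fzd1) had an unadjusted limma p under 0.05, against 3142 of all 9864 tested genes. The values of Fzd1, a receptor for canonical ligands, were 222, 257 and 214 in mineralizing and 258, 326 and 273 in AEBSF cultures. The lowest AEBSF value was barely above the highest mineralizing one (log2 difference 0.30 with SE 0.14, adjusted p = 0.168 by limma). Fzd6, a receptor that acts in planar cell polarity, had 1017 ± 35.1 and 1064 ± 54.3, with an interval of 94.4% to 116% of the mineralizing level (limma adjusted p = 0.574).

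The co-receptor Lrp6 gave 513, 588 and 536 in mineralizing and 516, 625 and 531 in AEBSF cultures. The groups overlapped almost wholly, and the interval ran from 87.8% to 118% (log2 difference 0.03 with SE 0.10, adjusted p = 0.888 by limma). Lrp5, whose loss causes fragile bones, was dim on both probe sets. The brighter one stood at 139 ± 25.3 and 150 ± 33.0 (limma adjusted p = 0.789), with an interval of 78.1% to 148%. Fzd2, Fzd3 and Fzd8 had log2 fold changes of 0.20, -0.02 and -0.17 and did not pass (limma adjusted p = 0.346, 0.899 and 0.488). Fzd4 and Fzd5 lay below the filter on all 4 probe sets (0.651 to 73.0). One of them, 1377796_at of Fzd5, gave 5.93, 28.0 and 22.3 against 1.502, 1.03 and 0.651, values among the dimmest of the members, and was not tested.

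The 4 genes that set how many receptors stay at the surface were all tested, and none passed in limma. Of the 4, 1 (Znrf3) had an unadjusted limma p under 0.05, against 3142 of all 9864 tested genes. Znrf3, a membrane ubiquitin ligase that removes Frizzled receptors, had 961, 1266 and 1142 in mineralizing and 1488, 1146 and 1570 in AEBSF cultures. AEBSF cultures 1 and 3 were the highest, while culture 2 lay inside the mineralizing range (log2 difference 0.32 with SE 0.12, adjusted p = 0.107 by limma). Without AEBSF culture 2, Znrf3 passed (log2 fold change 0.45, limma adjusted p = 0.0193). It passed in no other fit that left out 1 array. With the arrays scaled to their hybridization controls the log2 fold change of Znrf3 was 0.17 (limma adjusted p = 0.329).

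The Lgr genes encode receptors for R-spondins, which hold Znrf3 back. Lgr6 gave 1764, 1764 and 1658 in mineralizing and 2043, 1770 and 1366 in AEBSF cultures. Its AEBSF cultures spread over a wider range, with an SD of 341 against 61.1, around like means of 1726 and 1729 (limma adjusted p = 0.927). Lgr4 stood at 725 ± 18.2 and 734 ± 62.7 (interval 89.3% to 114%, limma adjusted p = 0.924). Lgr5 was dim, at 72.8 ± 28.6 and 95.4 ± 20.9 (limma adjusted p = 0.374).

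Of 9 measured antagonist genes, only Wif1, Sfrp4 and Kremen1 were bright enough to test, and none passed in limma. Of these, 1 (Sfrp4) had an unadjusted limma p under 0.05, against 3142 of all 9864 tested genes. Wif1, a secreted protein that binds Wnt ligands and is made by maturing osteoblasts, gave 3030, 3148 and 3042 in mineralizing and 3245, 2793 and 2938 in AEBSF cultures. The AEBSF values lay on both sides of the mineralizing ones, and the interval was 88.5% to 107% (log2 difference -0.04 with SE 0.06, adjusted p = 0.712 by limma). Sfrp4, a secreted decoy with a Frizzled-like domain, gave 378, 444 and 391 against 359, 264 and 349. All AEBSF values were lower, by a margin that did not pass (log2 difference -0.33 with SE 0.13, adjusted p = 0.123 by limma). A second Sfrp4 probe set, 1388021_at, lay below the filter and was not tested, and its groups overlapped. Averaged over both probe sets, the log2 difference of Sfrp4 was -0.16 with SE 0.24 (limma adjusted p = 0.71).

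Kremen1, a membrane receptor for Dkk proteins, had 142 ± 18.8 and 127 ± 22.7 (limma adjusted p = 0.61). The other antagonists, Sfrp1, Sfrp2, Sfrp5, Frzb, Dkk2 and Dkk3, lay below the filter on all 13 probe sets, with signals of 0.863 to 91.4. On 1370328_at of Dkk3 the values were 38.0, 46.6 and 33.1 against 64.5, 91.4 and 48.7, without overlap and without a test. Another Dkk3 probe set, 1397754_at, gave 39.4, 35.2 and 86.2 against 68.6, 68.9 and 66.1, where mineralizing culture 3 was the highest.

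**Figure D3:**
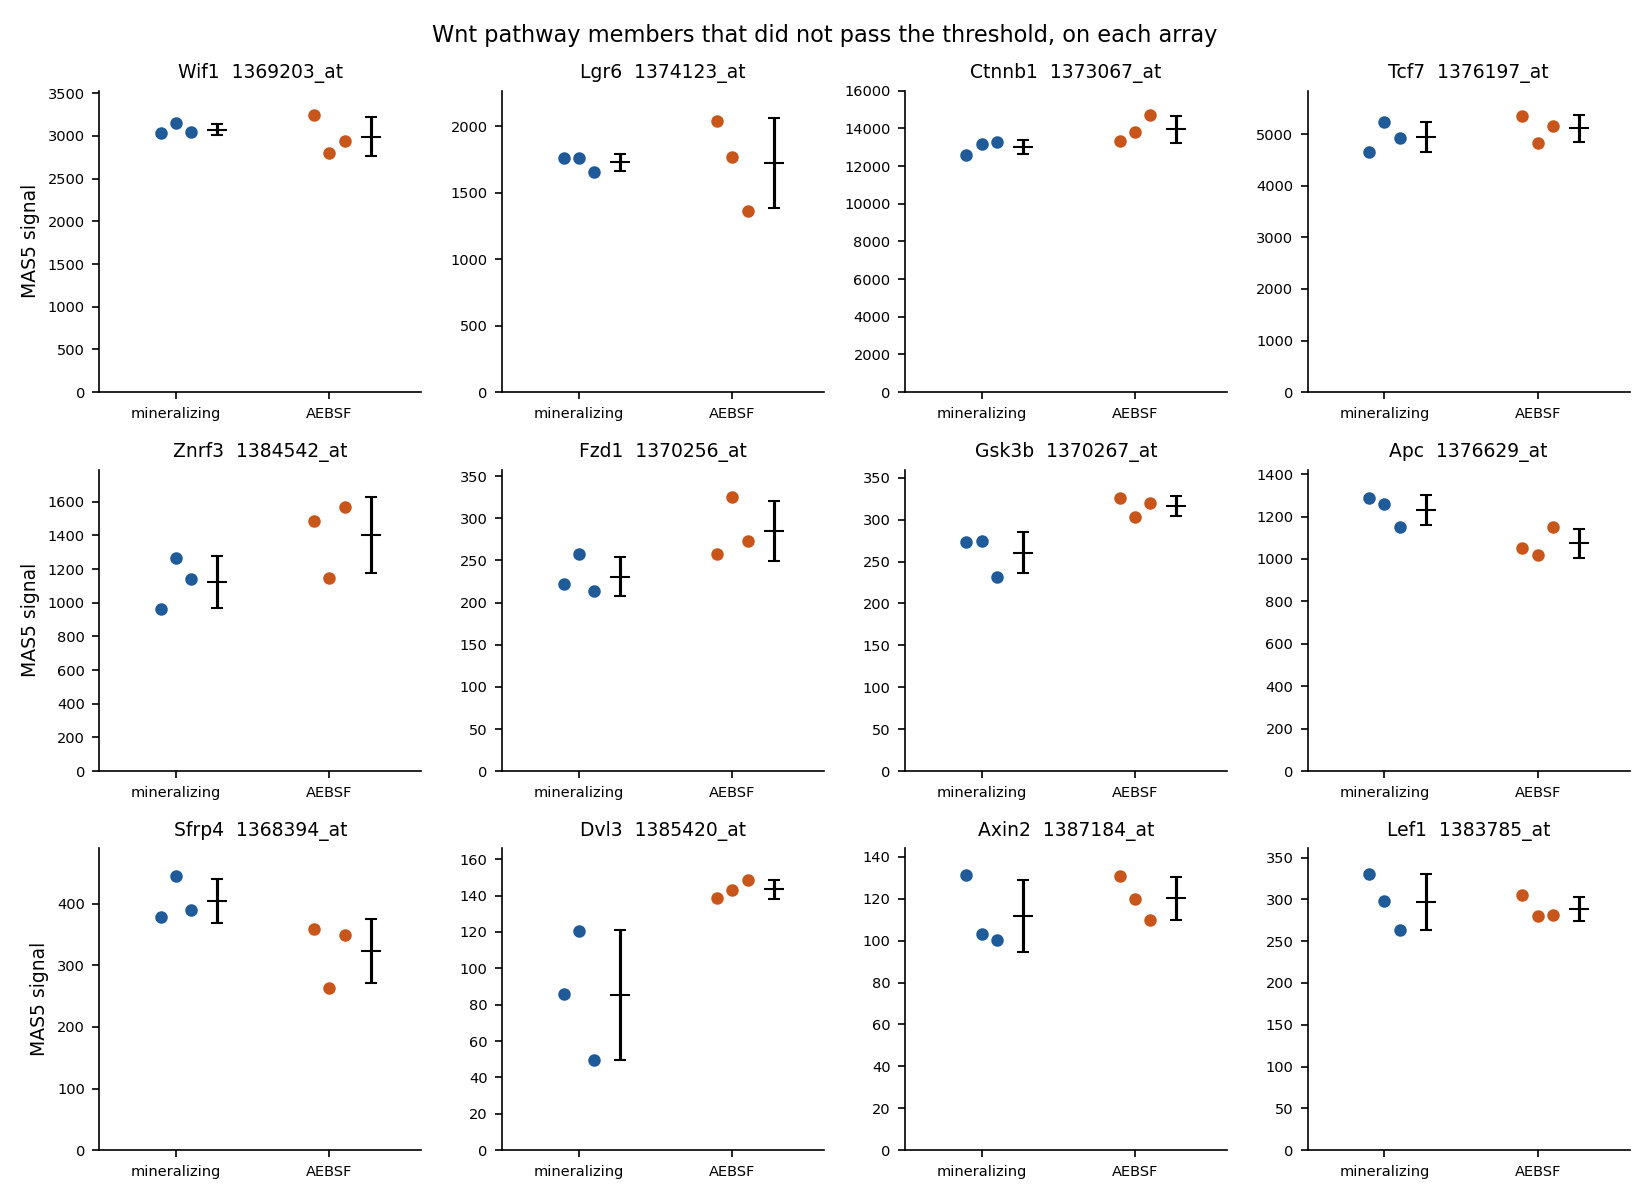
MAS5 signal (y axis of each panel, from 0) of 12 members by their brightest probe set on each array, with mineralizing cultures in blue, AEBSF cultures in orange and mean ± SD of 3 beside them. None of the 12 passed an adjusted p of 0.05, and the groups do not overlap for Ctnnb1, Fzd1, Gsk3b, Apc, Sfrp4 and Dvl3. By brightest probe set they do not overlap for 8 of the 35 tested member genes, against 3556 of all 9864 tested genes. Some of the 12, Fzd1 and Dvl3 among them, were chosen after their values were seen.

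All 11 effector genes of the cytoplasm were tested, on 16 of their 20 probe sets, and none passed in limma. At an unadjusted p under 0.05, 3 of the 16 probe sets passed, against 28.4% of all tested probe sets. Ctnnb1, which encodes beta-catenin, gave 12589, 13192 and 13274 in mineralizing and 13315, 13824 and 14723 in AEBSF cultures on its brightest probe set. The groups did not overlap, but the difference was small (log2 difference 0.10 with SE 0.05, adjusted p = 0.26 by limma, interval 98.6% to 116%). With quantile normalization, which gives all arrays the same distribution of signals, it was 0.007 (limma adjusted p = 0.928). On the other tested Ctnnb1 probe sets, 1373470_at and 1369733_at, the log2 fold changes were 0.02 and -0.06 (limma adjusted p = 0.812 and 0.603), with intervals of 94.2% to 109% and 87.1% to 106%.

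In the destruction complex, the scaffold gene Apc gave 1285, 1257 and 1153 in mineralizing and 1051, 1017 and 1151 in AEBSF cultures on 1376629_at. AEBSF culture 3 was just under the lowest mineralizing value, and the difference did not pass (log2 difference -0.20 with SE 0.07, adjusted p = 0.0924 by limma). It passed without AEBSF culture 3 (-0.25, limma adjusted p = 0.0476) and in no other fit that left out 1 array. The log2 difference on a second Apc probe set, 1387837_at, was -0.04 (limma adjusted p = 0.889).

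The kinase gene Gsk3b gave 274, 275 and 232 against 326, 303 and 320. Its AEBSF values were all higher (log2 difference 0.29 with SE 0.12, adjusted p = 0.136 by limma). Its relative Gsk3a stood at 322 ± 45.8 and 372 ± 39.2 with overlap (limma adjusted p = 0.309). Axin1, the limiting scaffold of the complex, was 498 ± 81.8 and 501 ± 90.3 (limma adjusted p = 0.978).

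Axin2, the feedback scaffold whose promoter is printed above, gave 131, 103 and 101 in mineralizing and 131, 120.0 and 110 in AEBSF cultures. The groups overlapped (log2 difference 0.11 with SE 0.19, adjusted p = 0.747 by limma), and the interval ran from 80.9% to 144% of the mineralizing level. Nkd1, the other printed feedback gene, had tested probe sets of opposite sign. They gave 166 ± 19.2 and 141 ± 15.8 on 1375959_at and 86.5 ± 20.4 and 114 ± 39.8 on 1389112_at (limma adjusted p = 0.402 and 0.405). Nkd2, which like Nkd1 binds Dishevelled, stood at 101 ± 17.9 and 102 ± 7.28 (limma adjusted p = 0.952).

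The Dishevelled genes Dvl1, Dvl2 and Dvl3 relay the signal from Frizzled. Dvl3 gave 85.8, 121 and 49.4 in mineralizing and 138, 143 and 149 in AEBSF cultures. The mineralizing values were spread more than 2-fold, and the AEBSF values lay close together above them (log2 difference 0.84 with SE 0.28, adjusted p = 0.0697 by limma). Without mineralizing culture 2, the highest of its group, Dvl3 passed (log2 fold change 1.14, limma adjusted p = 0.0282). It passed in no other fit that left out 1 array. With the arrays scaled to their hybridization controls the log2 fold change of Dvl3 was 0.69 (limma adjusted p = 0.0788). Dvl1 had log2 fold changes of 0.12 and 0.15 on its tested probe sets and Dvl2 of 0.17 (limma adjusted p = 0.387, 0.398 and 0.575).

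Of the nuclear factors, all 4 genes were tested on 10 probe sets and none passed in limma. Of the 10, 0 had an unadjusted limma p under 0.05, against 28.4% of all tested probe sets. Tcf7, printed above for its promoter, gave 4653, 5237 and 4924 in mineralizing and 5355, 4827 and 5149 in AEBSF cultures. The groups overlapped and the interval was narrow, 94.4% to 113% (log2 difference 0.05 with SE 0.06, adjusted p = 0.634 by limma). Lef1, which acts in osteoblast precursors, had 297 ± 33.4 and 289 ± 14.1 on its brighter probe set and 128 ± 8.97 and 137 ± 26.6 on the other, with opposite signs (limma adjusted p = 0.872 and 0.844).

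Tcf7l2, a Tcf factor of many tissues, had 5 tested probe sets, 3 with log2 fold changes above 0 and 2 below. The brightest gave 1045, 984 and 1033 against 897, 1030 and 984, with overlap (log2 difference -0.07 with SE 0.07, adjusted p = 0.542 by limma). Tcf7l1, mostly a repressor, had log2 fold changes of -0.25 and 0.20 on 1390283_at and 1382558_at (limma adjusted p = 0.439 and 0.638).

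Outside the rule, 110 other genes of the pathway were listed, of which 88 were tested, 10 lay below the filter and 12 were not analysed here. By the brightest probe set, 13 of the 88 fell, 2 rose and 73 did not pass in limma, with a median log2 fold change of -0.03 (0.002 over all tested genes). Over all tested genes 9.22% were lower and 7.09% higher, and these shares stand beside the count of each list below. The lists were drawn up with earlier results of these data known, so the counts describe them and do not test the pathway. By list the median was -0.26 for secretion and agonists, -0.10 for co-receptors and extracellular inhibitors, 0.05 for cytoplasmic regulators, 0.10 for nuclear co-factors, -0.07 for the polarity and calcium branch and -0.11 for known targets. Among 4 tested genes of ligand secretion and agonists, Ndp fell and 0 rose. Ndp encodes norrin, a non-Wnt ligand of Fzd4. It went from 271, 250 and 261 to 134, 141 and 187, without overlap (1.71-fold; log2 difference -0.77 with SE 0.16, adjusted p = 0.00875 by limma). A second probe set of Ndp also fell (-1.05, SE 0.21, limma adjusted p = 0.00781), whereas Fzd4 itself was below the filter. Wls, which carries Wnt proteins to the cell surface, stood at 1737 ± 68.8 and 1565 ± 170 (limma adjusted p = 0.222).

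Among 7 tested co-receptors and extracellular inhibitors, Sost and Gpc3 fell and 0 rose. Gpc3, a heparan sulfate proteoglycan that binds Wnt ligands and Frizzled, went from 3071, 2736 and 2842 to 1954, 1930 and 1995 (1.47-fold; log2 difference -0.56 with SE 0.06, adjusted p = 0.000233 by limma). A second, dim probe set of Gpc3 stood at 0.31 on the log2 scale and did not pass (limma adjusted p = 0.306). Sost encodes sclerostin, which blocks Lrp5 and Lrp6. It fell from 541, 418 and 437 to 337, 296 and 309 (1.47-fold, limma adjusted p = 0.0109), a call lost without mineralizing culture 1 (0.0558). Ryk, Ptk7 and Lrp4, also receptors or co-receptors, had log2 fold changes from -0.06 to 0 and did not pass (limma adjusted p = 0.983, 0.783 and 0.609).

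Of 17 tested cytoplasmic regulators, 1 fell and 0 rose. Cby1, a protein that binds beta-catenin and exports it from the nucleus, fell from 551 ± 21.0 to 424 ± 59.9 (log2 difference -0.39 with SE 0.11, adjusted p = 0.0371 by limma). That call was lost without any of the 3 mineralizing cultures (limma adjusted p = 0.0987, 0.0821 and 0.111) and without AEBSF culture 1 or 3 (0.111 and 0.0582), with no signal filter (0.0632), with a constant variance prior (0.0984) and with the replicate numbers as a block (0.0518). On a second Cby1 probe set the groups overlapped (log2 difference -0.20, limma adjusted p = 0.263). Of 19 tested nuclear co-factors, Tle2 and Hbp1 fell and Ruvbl1 rose. Hbp1, a repressor that blocks Tcf binding, fell from 847, 801 and 879 to 653, 574 and 612 (1.37-fold; log2 difference -0.46 with SE 0.08, adjusted p = 0.00383 by limma). Ruvbl1, an ATPase of chromatin complexes, rose from 3837 ± 84.0 to 4598 ± 118 (1.20-fold, limma adjusted p = 0.00676). The Groucho-type co-repressor Tle2 fell from 200.3 ± 15.5 to 137 ± 6.91 (limma adjusted p = 0.0314), a call lost without each of mineralizing cultures 1, 2 and 3 and AEBSF cultures 1 and 2 (0.0911, 0.0671, 0.106, 0.0774 and 0.0666), with no signal filter (0.0605) and with the replicate block (0.0565).

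Of 16 tested genes of the planar polarity and calcium branch, Vangl1 and Prickle1 fell and 0 rose. Vangl1, a membrane protein of planar polarity, fell from 614, 524 and 511 to 384, 387 and 405 (1.40-fold; log2 difference -0.48 with SE 0.10, adjusted p = 0.00872 by limma). It missed the threshold without mineralizing culture 1 (limma adjusted p = 0.0502). Prickle1, its cytoplasmic partner, fell from 610, 756 and 806 to 468, 576 and 543 (1.36-fold, limma adjusted p = 0.025), and missed the threshold when mineralizing culture 2, mineralizing culture 3 or AEBSF culture 1 was left out (0.0885, 0.096 and 0.0823). The relative Vangl2 had 939 ± 33.1 and 919 ± 17.1 (limma adjusted p = 0.806). On a second, dim Prickle1 probe set the log2 difference was 0.05 (limma adjusted p = 0.906).

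Among 25 tested genes known as targets of beta-catenin and Tcf, 5 fell, 1 rose and 19 did not pass. Of all tested genes 9.22% were lower and 7.09% higher, and whether the list differs from them was not tested. Bmp4, a bone morphogenetic protein, fell from 2094, 2017 and 2070 to 1638, 1428 and 1422 (1.38-fold; log2 difference -0.46 with SE 0.07, adjusted p = 0.00131 by limma). Id2, an inhibitor of basic helix-loop-helix factors that is also induced by bone morphogenetic proteins, rose from 2748, 2704 and 2824 to 3162, 4066 and 3989 (1.35-fold; log2 difference 0.43 with SE 0.08, adjusted p = 0.0071 by limma). A second Id2 probe set also rose (0.47, limma adjusted p = 0.0054). Irs1, the insulin receptor substrate, fell 1.28-fold (limma adjusted p = 0.0292) and the AP-1 factor Jun 1.23-fold (limma adjusted p = 0.0141). Irs1 missed the threshold without any 1 of the mineralizing cultures (limma adjusted p = 0.126, 0.0754 and 0.0549) or AEBSF culture 3 (0.0703), and Jun without any 1 of the mineralizing cultures (0.0507, 0.0534 and 0.0531). On the other Jun probe sets the log2 fold changes were -0.17 and 0.20 (limma adjusted p = 0.316 and 0.509).

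The other falls on the target list were Gja1, which encodes the gap junction protein connexin 43, and Enc1, at 1.17- and 1.21-fold (limma adjusted p = 0.0134 and 0.0115). A second Gja1 probe set fell as well (log2 fold change -0.46, limma adjusted p = 0.00201), while 2 dimmer Enc1 probe sets did not pass (limma adjusted p = 0.998 and 0.715). The Gja1 call on the brightest probe set was lost without mineralizing culture 1 or AEBSF culture 1 (0.0532 and 0.0515). Myc, a cell cycle target often named with Ccnd1, had 4849 ± 272 and 4292 ± 126 (log2 fold change -0.17, limma adjusted p = 0.0617). Ccnd2, the cyclin most like Ccnd1, had 5578 ± 159 and 5788 ± 598 (limma adjusted p = 0.693), and Ccn4, a matricellular target, 4793 ± 81.8 and 4841 ± 146 (limma adjusted p = 0.888). Both rises outside the rule, Ruvbl1 and Id2, did not pass with the arrays scaled to their hybridization controls (limma adjusted p = 0.441 and 0.0534). Under that scaling the median log2 difference over all tested genes went from 0.002 to -0.144, so rises and falls are relative to the other genes of the array.

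**Figure D4:**
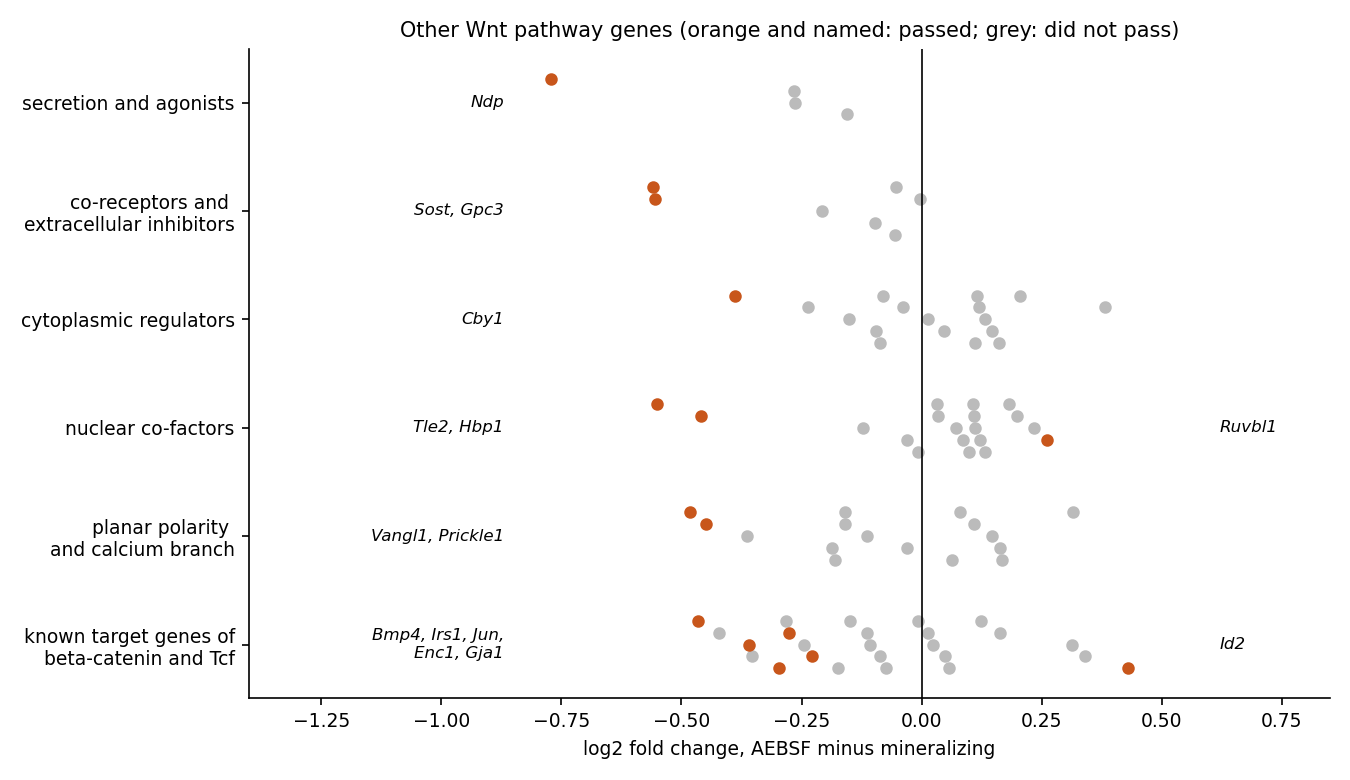
Log2 fold change (x axis, AEBSF minus mineralizing, brightest probe set) of the 88 tested genes of 6 other Wnt pathway lists (rows, points spread vertically for legibility). Orange points passed an adjusted p of 0.05 in limma and are named beside their row, 13 lower and 2 higher, and grey points did not pass.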

How the data were processed

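RNA was measured on 6 Affymetrix rat arrays, 1 per culture, in 2 groups of 3 taken from the sample titles. Each deposited intensity is a signal that, per the submitters' processing notes, came from MAS5 and GCOS. Their versions and the scaling target were not given in the sources used here. Per the values, signals were linear and positive, with equal trimmed means (lowest and highest 2% left out), so shifts in the total RNA of a cell are not visible. At most 2 of 31099 values were equal in any pair of arrays.

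Probe sets with exactly 1 symbol (20826 of 31042 that were not controls) were named from the platform annotation, updated through Entrez identifiers. Log2 signals with no added constant were fitted in R 4.3.3 with limma 3.58.1 (lmFit, eBayes with a trend) over the 18625 probe sets above the 40th percentile of mean log2 signal. The fit was tested on simulated data. Promoter motifs were searched in Python 3.11.15.

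The members and lists were chosen with earlier results of these data known. Named were members past the threshold, genes whose probe sets disagree, the 2 brightest members of each role, and genes fixed by name; of the other pathway genes, up to 4 called per list. Other members, Fzd1 and Dvl3 among them, were named after their values were seen, as were Enc1 and Gja1. Same-numbered cultures did not deviate together (correlations 0.01, -0.12 and -0.04), so no pairing was used.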

Additional observations from a re-analysis of the deposited data

How the results depend on the processing

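The counts and the tested genes of the naming rule (brightest probe set, and all 3 of Ccnd1), with Fzd1, Sfrp4, Dvl3, Enc1 and Gja1, were refitted; other members named in the text (Wnt9a and Gsk3a among them) and the exact tests were not. At the 60th percentile filter Wnt6, Nkd1, Lrp5, Axin2, Dvl3, Ndp and Tle2 were too dim for a value. Alternatives for the other pathway genes were chosen after seeing the data. With hybridization control scaling 4 member probe sets were lower instead of 2 (Sfrp4 and Apc added; limma adjusted p = 0.0247 and 0.0254) and 3 genes instead of 1, and of the other pathway genes 20 were lower and 0 higher instead of 13 and 2. Over all tested probe sets that scaling gave 119 higher and 2457 lower instead of 1115 and 1380, and 14 instead of 30 of the 49 member values lay above 0. With a constant variance prior 1 member probe set and 0 genes were lower, and 6 of the other genes were lower and 0 higher (lost: Sost, Cby1, Prickle1, Jun, Gja1, Enc1, Irs1, Ruvbl1 and Id2). Without a signal filter 3 member probe sets were lower, Fzd5 1377796_at added, and 11 of the other genes (lost: Cby1 and Tle2). Leaving out 1 array at a time gave 1 to 3 lower and 0 to 1 higher member probe sets, 0 to 2 lower and 0 to 1 higher genes, and 6 to 13 lower and 2 to 5 higher other genes. The replicate block gave 2 lower member probe sets, 1 lower gene, and 12 lower and 2 higher other genes; with no pairing in the data it is no stricter version of the comparison. Signs turned for members that did not pass. With hybridization scaling the log2 fold change was -0.047 for Ctnnb1, -0.097 for Tcf7, -0.081 for Fzd6, -0.13 for Lgr4, -0.12 for Lrp6, -0.021 for Wnt5a, -0.041 for Lrp5 and -0.035 for Axin2. Leaving out 1 array, it ran from -0.058 to 0.082 for Lrp6, -0.12 to 0.041 for Lef1, -0.050 to 0.29 for Lrp5, -0.21 to 0.020 for Ccnd1 1371150_at, -0.10 to 0.0071 for Wif1, -0.038 to 0.085 for Lgr4 and -0.15 to 0.14 for Lgr6. Averaged over all probe sets of a gene, dim ones included, the log2 fold change was 0.23 for Apc, -0.15 for Dvl1 and 0.065 for Nkd1. For Lef1 and Tcf7l2 that average was 0.017 and 0.0059. The causes were not tested. Low signal limits the 16 genes without a tested probe set.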
